A study of Mus musculus with 2 samples.

Results

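The interferon regulatory factors (IRFs) described here are 8 genes, Irf1, Irf2, Irf3, Irf4, Irf5, Irf7, Irf8 and Irf9, chosen by their symbols among the 22886 genes of 2 RNA sequencing libraries. Both libraries were labelled as aerobic cells sorted from subcutaneous tumors of Lewis lung carcinoma (LLC), a transplantable mouse lung tumor, in wild type C57BL/6 mice. One library came from mice injected with vehicle and the other from mice injected with clodronate, a bisphosphonate that kills phagocytes when they take it up in liposomes, and there was 1 library per condition. The labels gave no age, dose, time, number of animals or sorting gate, and did not say whether the clodronate was in liposomes. The growth protocol named EML cells, a line of blood progenitors, at odds with the tumor origin in the other labels, and the libraries are called by their injection here. Macrophage transcripts dominated both of them, since the 12 macrophage markers (Csf1r, Cd68, Lyz2 and others) summed to 23041 RPKM (reads scaled to transcript length and library size) in the vehicle library and 22059 RPKM in the clodronate library. The 6 markers of epithelial and carcinoma cells summed to 15.0 and 11.0 RPKM, with Epcam and Krt19 listed at 0 in both libraries, Krt7 listed at 0 with clodronate but not with vehicle, and Cdh1, Krt8 and Krt18 between 1.33 and 6.44 RPKM.

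IRFs are transcription factors that share a DNA-binding domain with a conserved row of tryptophans, and they bind elements built from repeats of GAAA. Irf3 and Irf7 are switched on by phosphorylation after viral or self nucleic acids are sensed and drive the type I interferon genes. The interferons then act through their receptors on ISGF3, a complex that holds Stat2 and Irf9 and turns on antiviral genes and Irf7 itself. Irf1 and Irf2 bind the same elements with largely opposite effects, Irf5 acts below Toll-like receptors in inflammatory macrophages, and Irf4 and Irf8 shape the development of macrophages, dendritic cells and B cells.

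Irf7 was the member that stood apart. Its level was 20.1 RPKM in the vehicle library and 107 RPKM in the clodronate library, and it went from the seventh place among the 8 IRFs to the first. The other 7 members had log2 ratios from -0.040 to 0.69, none of them as much as 3-fold apart. Log2 ratios were taken after 1 was added to both RPKM values, clodronate over vehicle, and they shrink toward 0 for genes with low values. Every count of genes past 3-fold is on this scale. With a single library on each side no difference could be tested against replicates, and no p-value is given. All 8 members had a mean of at least 1 RPKM, the filter that 10982 genes passed. Of the members, 1 was at least 3-fold higher in the clodronate library, where 2.86% of the 10982 genes were, and 0 were at least 3-fold lower, where 2.32% were. In bulk RNA, a change in the number of cells of a type and a change in RNA per cell cannot be told apart.

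**Figure D1:**
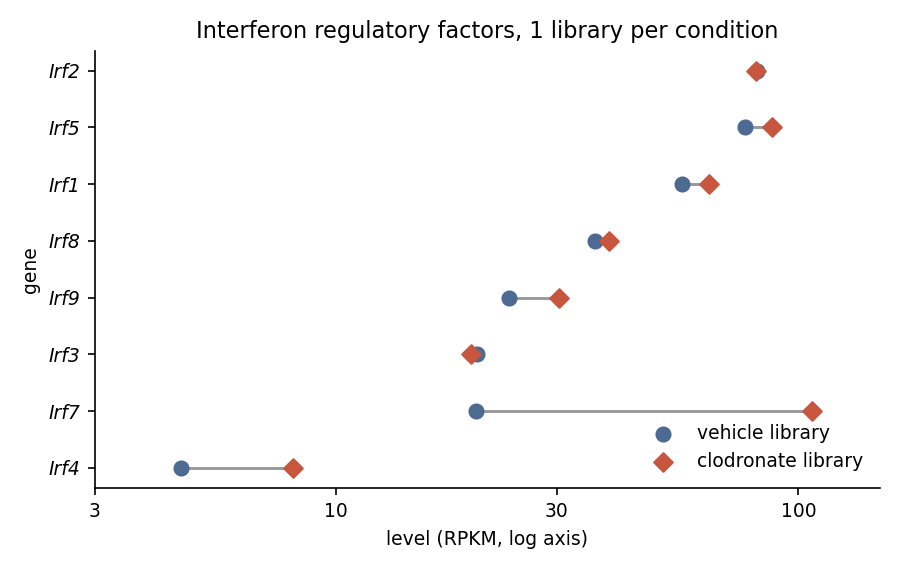
Level of each IRF in RPKM in the vehicle and the clodronate library, 1 library per condition. Irf7 lies at 20.1 RPKM with vehicle and at 107 RPKM with clodronate. Irf4 lies at 4.62 and 8.06 RPKM, and each of the remaining members has its pair of points nearer each other.

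Promoter sequence was read for the members that the results turn on, from 300-base RefSeq windows on build GRCm38.p6 that run from 250 bases before to 50 bases after a start site. Both strands were searched for GAAANNGAAA, the core of the interferon-stimulated response element (ISRE) that IRFs and ISGF3 bind, and for TTCNNNGAA, the core of the interferon-γ activated site (GAS). Of 32851 windows, 3.44% held the ISRE core and 8.30% the GAS core. A match describes letters only and does not show that a factor binds there. The start of the Irf7 window is shown because Irf7 had the largest ratio of the members. Neither core was found in this window, and bases outside it were not searched, so this does not show that Irf7 lacks them. The stretch shown lies on the minus strand at chr7:141266500-141266674, upstream of all annotated starts of the gene. It covers positions -250 to -76 from the start, with no capitals because there was no match:
Irf7: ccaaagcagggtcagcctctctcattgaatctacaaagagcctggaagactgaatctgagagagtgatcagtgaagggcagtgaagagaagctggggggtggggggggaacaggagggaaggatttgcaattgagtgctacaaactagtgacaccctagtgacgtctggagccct

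The ISRE core was found in the windows of 1 of the 8 members, Irf2, and the GAS core in those of 3, Irf1, Irf2 and Irf8. Windows of Irf3, Irf4, Irf5 and Irf9 held neither. The 3 stretches below lie on the plus strand and show the matches in capitals, at chr8:46739495-46739554 for Irf2, chr11:53769904-53769953 for Irf1 and chr8:120736168-120736227 for Irf8. In Irf2 the ISRE core comes first and the GAS core after it, and Irf8 has 2 GAS cores:
Irf2: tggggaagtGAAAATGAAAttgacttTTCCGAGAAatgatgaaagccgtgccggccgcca
Irf1: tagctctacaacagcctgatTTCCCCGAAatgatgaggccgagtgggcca
Irf8: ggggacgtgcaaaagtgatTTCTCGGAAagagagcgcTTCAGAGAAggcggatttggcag

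Irf3 and Irf7, the factors that start the interferon response, were level with each other in the vehicle library. There Irf3 (chr7:52253017-52258218, build mm9 for all gene loci) was at 20.2 RPKM and Irf7 (chr7:148449081-148452323) at 20.1 RPKM, a quotient of Irf7 to Irf3 of 0.996 per unit of transcript length. In the clodronate library Irf3 was at 19.6 RPKM and Irf7 at 107 RPKM, a quotient of 5.47. Irf3, which is made without stimulation in most cells, had a log2 ratio of -0.040, against 2.36 for Irf7, whose gene is itself induced by interferon. On the linear scale Irf7 was 5.33 times as high in the clodronate library. After scaling by transcript length, 76.6% of low values in each library lay within 0.1 of a whole multiple of 1 step, from which about 429 reads of Irf7 were estimated in the vehicle library and 1875 in the clodronate library. These give a 95% exact interval of 4.80 to 5.93 for the linear ratio. For Irf3, with about 505 and 402 reads, the linear ratio was 0.972, with an interval of 0.850 to 1.11. All such intervals cover counting error only and say nothing about variation between animals.

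Set among all genes, the ratio of Irf7 was the 97th highest of 10982, within the top 0.883%. Of the 96 genes with a ratio at least as high, 48 had a mean of at least 10 RPKM, a level that 5913 genes reached. Irf7 was among the top 32.5% of genes by level in the vehicle library and among the top 6.96% in the clodronate library. The genes whose pair of levels lay nearest to that of Irf7, by Euclidean distance in log2(RPKM + 1) over the 2 libraries, included Rmrp and Ly6a. Rmrp, the RNA component of an endoribonuclease, was at 24.8 and 119 RPKM in the vehicle and the clodronate library. Ly6a, the surface antigen Sca-1, was at 21.1 and 153 RPKM. With 2 libraries, this likeness says only that these genes had similar levels in each of them.

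**Figure D2:**
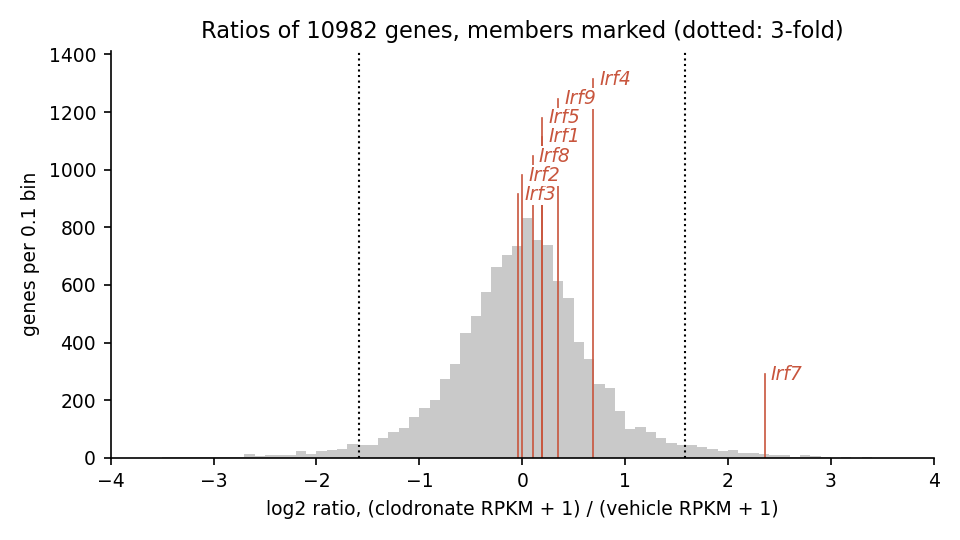
Histogram of the log2 ratios of 10982 genes in bins of 0.1, with the 8 IRFs marked by vertical lines and the 3-fold bounds dotted (52 genes beyond the axis limit of 4 in either direction are not shown). Irf7 at 2.36 lies beyond the upper bound, and the other 7 members lie between -0.040 and 0.69.

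The reads of Irf7 were not shared with an overlapping locus in the files. The nearest locus, Phrf1, lies 431 bases away and was at 12.3 RPKM in the vehicle library and 13.0 RPKM in the clodronate library, a log2 ratio of 0.069. Cdhr5, 2660 bases away, was listed at 0 in both. No member overlapped another locus, and none of their rows held a noncoding accession. Next to Irf9, 313 bases away, lies Rnf31, a subunit of the linear ubiquitin ligase, which was at 7.92 and 16.0 RPKM, a larger log2 ratio (0.93) than that of Irf9.

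Irf9 (chr14:56222821-56228867), the DNA-binding subunit of ISGF3, was at 23.6 RPKM in the vehicle library and 30.3 RPKM in the clodronate library. Its log2 ratio was 0.35, and its linear ratio of 1.28 had a counting interval of 1.16 to 1.43. Stat2, its partner in the complex, had a larger ratio than Irf9 itself. It was at 20.4 RPKM in the vehicle library and 32.4 RPKM in the clodronate library, a log2 ratio of 0.64. Both were thus higher in the clodronate library, each by less than 3-fold.

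Irf1 and Irf2 differed little between the libraries. Irf1 (chr11:53583515-53591876), an activator induced by interferon-γ, was at 55.9 RPKM in the vehicle library and 64.1 RPKM in the clodronate library. Irf2 (chr8:47825098-47932812), mostly a repressor at the elements that Irf1 occupies, was at 81.2 and 81.0 RPKM. The log2 ratio was 0.19 for Irf1 and -0.0027 for Irf2. On the linear scale the counting intervals were 1.06 to 1.23 for Irf1 and 0.942 to 1.06 for Irf2. The quotient of Irf1 to Irf2 was 0.689 in the vehicle library and 0.791 in the clodronate library, so Irf2 was the more abundant of the pair per unit of transcript length in both.

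Irf5 (chr6:29476624-29487320), which relays Toll-like receptor signals to inflammatory cytokine genes, was abundant in both libraries. It was at 76.7 RPKM in the vehicle library and 87.8 RPKM in the clodronate library, the second level among the IRFs in each. Its log2 ratio was 0.19, and its linear ratio of 1.14 had a counting interval of 1.08 to 1.22. Irf5 and Irf2, which were neighbours in the order of levels in both libraries, had overlapping counting intervals in both.

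Irf8 and Irf4, the closely related members that pair with the Ets factor PU.1 in myeloid and lymphoid cells, were far apart in level. Irf8 (chr8:123260275-123280592) was at 36.3 RPKM in the vehicle library and 39.0 RPKM in the clodronate library. Irf4 (chr13:30841126-30858796), the lowest of the 8 in both libraries, was at 4.62 and 8.06 RPKM. The quotient of Irf8 to Irf4 was 7.86 in the vehicle library and 4.84 in the clodronate library. Irf4 had the second largest log2 ratio of the members, 0.69, which 13.3% of all genes reached or passed. About 288 and 413 reads of Irf4 gave a counting interval of 1.50 to 2.04 around its linear ratio of 1.75. For Irf8 the linear ratio of 1.07 had an interval of 0.992 to 1.16, so no difference was detectable at this depth.

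Apart from Irf7, the order of the IRFs differed between the libraries in 1 pair, Irf2 and Irf5. In the vehicle library it ran Irf2, Irf5, Irf1, Irf8, Irf9, Irf3, Irf7 and Irf4 from high to low, and the counting intervals of Irf2 and Irf5, of Irf9 and Irf3, and of Irf3 and Irf7 overlapped. In the clodronate library it ran Irf7, Irf5, Irf2, Irf1, Irf8, Irf9, Irf3 and Irf4, and Irf5 and Irf2 were the single neighbours whose intervals overlapped. Of the 8 members, 7 were at 10 RPKM or more in both libraries, while the median gene kept was at 11.1 RPKM in the vehicle library and 11.3 RPKM in the clodronate library.

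The levels of the 8 genes summed to 318.6 RPKM in the vehicle library and 437 RPKM in the clodronate library, and Irf7 made up 73.5% of the gain of 118.4 RPKM. Irf7 took 6.31% of the sum in the vehicle library and 24.5% in the clodronate library. Without Irf7 the sums were 298.5 and 329.9 RPKM, a log2 ratio of 0.14. The median log2 ratio of the members was 0.19, beside 0.019 over all genes kept. Of the 8 log2 ratios, 6 lay within the central 50% of all genes, which ran from -0.38 to 0.40, and the exceptions were Irf4 and Irf7.

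The type I interferon genes, which Irf3 and Irf7 drive, were mostly not seen. The list of 14 ligand genes also held Ifng and the interleukin-27 subunits Il27 and Ebi3, which are not type I interferons. Of the 14, 10 were listed at 0 in both libraries, among them Ifnb1 and the 8 interferon-α genes listed. Ifnk, the interferon of keratinocytes, was at 5.91 RPKM in the clodronate library, against 0 in the vehicle library. Its locus in the files spans 208412 bases and overlaps that of Mob3b, so its reads cannot be told apart from those of the overlapping gene. Ifng, the interferon of T and NK cells, was at 2.75 RPKM in the vehicle library and listed at 0 in the clodronate library. The subunits of interleukin-27 went opposite ways, with Il27 at 6.94 and 0.531 RPKM and Ebi3 at 11.8 and 19.2 RPKM. Of the 4 ligand genes kept, 1 (Ifnk) was past 3-fold higher, where 2.86% of all genes kept were. Ifng and Il27 were past 3-fold lower, where 2.32% were. Each of these genes passed the filter only through the library where it was higher, so the counts are a description only.

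Upstream of Irf3, Irf5 and Irf7, the sensors, adaptors and kinases had a median log2 ratio of 0.10 over 23 genes, 14 higher and 9 lower in the clodronate library. None was at least 3-fold higher, where 2.86% of all genes kept were, and 1 was at least 3-fold lower, where 2.32% were. Tlr7 and Tlr9, the endosomal receptors for RNA and DNA, were at 36.9 and 33.5 RPKM and at 12.7 and 15.0 RPKM in the vehicle and the clodronate library. Myd88, the adaptor that ties these receptors to Irf5 and Irf7, was at 31.6 and 32.3 RPKM. The kinases that phosphorylate Irf3 and Irf7 differed in direction, with Tbk1 at 49.2 and 28.3 RPKM and Ikbke at 37.8 and 58.4 RPKM. Irak1, the kinase that follows Myd88, was the single gene of the list past 3-fold, at 1054 RPKM in the vehicle library and 47.1 RPKM in the clodronate library. Its vehicle value was far above that of the next gene of the list, Unc93b1, at 341 and 377 RPKM. The locus of Irak1 overlapped no other, and whether its value would recur in another library was not tested.

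Among the 10 receptor and JAK-STAT genes, 6 were higher and 4 lower, none by 3-fold, with a median log2 ratio of 0.18. The type I receptor chains Ifnar1 and Ifnar2 were at 46.2 and 50.3 RPKM and at 76.7 and 95.9 RPKM in the vehicle and the clodronate library. Jak2, a kinase of the interferon-γ receptor, was at 19.9 and 11.8 RPKM. Among the 14 inhibitors and cofactors, 9 were higher and 5 lower, none by 3-fold after 1 was added to each value, with a median of 0.23. Irf2bp2, which binds Irf2 as a corepressor, was at 69.1 and 89.2 RPKM. Socs1, an inhibitor of JAK kinases, was at 0.714 and 3.15 RPKM, a linear ratio of 4.42 but a log2 ratio of 1.28 after 1 was added, and Usp18, which damps the type I receptor, was at 12.8 and 12.5 RPKM.

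Downstream, the targets of ISGF3 had the highest median log2 ratio of the 7 pathway lists examined, 1.30 over 23 genes. Of these genes 20 were higher and 3 lower, and 9 were at least 3-fold higher, 39.1% of the list where 2.86% of all genes were. Ifi44 was among the 9, listed at 0 with vehicle and at 2.86 RPKM with clodronate. It passed the filter only through the clodronate library. Rtp4, a chaperone of G protein-coupled receptors that interferon induces, was at 4.18 RPKM in the vehicle library and 26.3 RPKM in the clodronate library, a log2 ratio of 2.40, close to that of Irf7. Zbp1, a sensor of Z-form nucleic acids, was at 18.2 and 67.6 RPKM, and Ifit1, which binds foreign RNA caps, at 2.47 and 13.1 RPKM. The genes of the list that were lower were Xaf1 at 20.2 and 14.9 RPKM, Eif2ak2, the kinase PKR, at 10.8 and 7.83 RPKM, and Mx2 at 2.26 and 2.09 RPKM. The list was chosen with earlier results of these data known, so its direction is a description only.

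**Figure D3:**
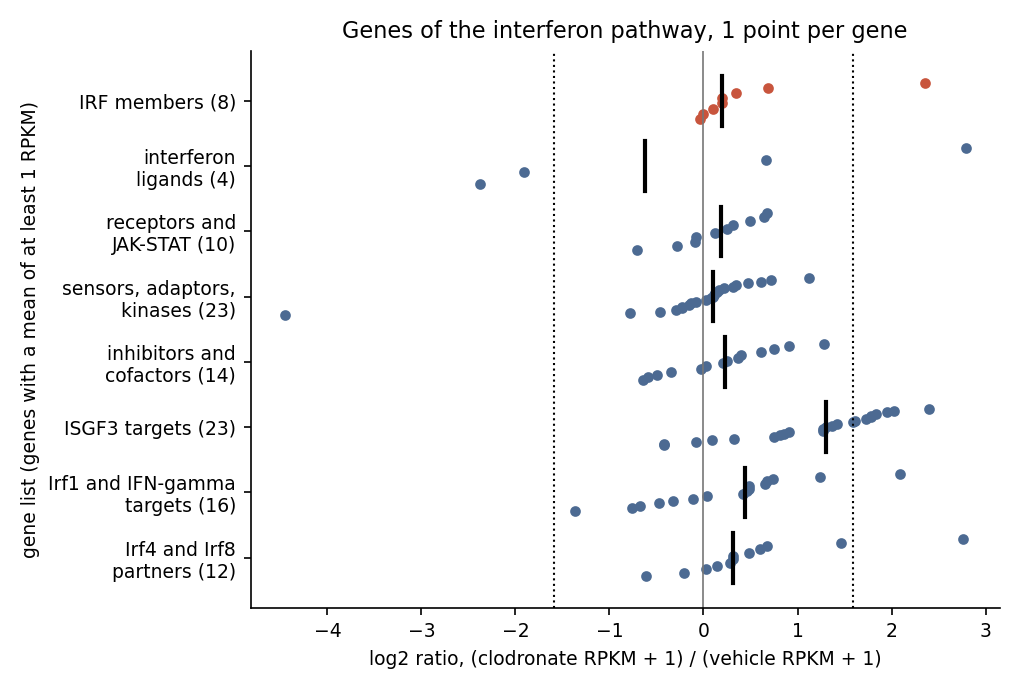
Log2 ratio of clodronate to vehicle, each RPKM + 1, of each gene kept in the pathway lists around the IRFs, with the median of each list. The ISGF3 targets have a median of 1.30 and the ligands of -0.62, while the medians of the other 5 lists lie from 0.10 to 0.44. The ligand median rests on 4 genes, among them Ifnk, whose locus overlaps another gene.

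The ISRE core was found in the windows of 10 of the 17 ISGF3 targets that had one. It was also found for 7 of 12 targets of Irf1 and interferon-γ. For the ligands it was 8 of 13, and these 8 were interferon-α genes listed at 0 RPKM in both libraries. Of the 10 ISGF3 targets with the core, Ifit1, Oas3 and Ddx60 were at least 3-fold higher with clodronate, and Eif2ak2 was lower. Among the windows of genes kept, 3.20% held the core, whereas the lists count genes with a match in any window. The targets were listed as interferon targets, so these shares describe the lists. Isg15 (6.69 and 18.0 RPKM in the vehicle and the clodronate library), a ubiquitin-like protein, and Bst2 (45.4 and 111 RPKM), the antiviral protein tetherin, are shown against the window of Irf7. Both stretches lie on the minus strand of build GRCm38.p6, at chr4:156200860-156200911 for Isg15 and chr8:71537572-71537617 for Bst2. Capitals mark 3 overlapping ISRE cores in Isg15, and a GAS core that runs into 2 ISRE cores in Bst2:
Isg15: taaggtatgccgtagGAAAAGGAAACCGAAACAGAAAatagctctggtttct
Bst2: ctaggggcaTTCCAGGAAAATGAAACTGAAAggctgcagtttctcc

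Targets of Irf1 and interferon-γ went both ways. Of the 16 genes kept out of 17, 10 were higher and 6 lower, with a median log2 ratio of 0.44. Of the 16, 1 was at least 3-fold higher, 6.25%, where 2.86% of all genes kept were. The gene past 3-fold was Igtp, an immunity-related GTPase, at 4.19 RPKM in the vehicle library and 21.1 RPKM in the clodronate library. The guanylate-binding proteins Gbp3 and Gbp2 were at 15.8 and 5.55 RPKM and at 81.3 and 50.7 RPKM. The chemokines of T cells also differed in direction, with Cxcl9 at 60.4 and 35.3 RPKM and Cxcl10 at 46.8 and 78.6 RPKM. Irf1 itself had a log2 ratio of 0.19.

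Partners and lineage factors of Irf4 and Irf8 had a median log2 ratio of 0.31 over the 12 genes kept of 14, with 10 higher and 2 lower. Spi1, which encodes PU.1, was at 208 RPKM in the vehicle library and 333 RPKM in the clodronate library. Batf, an AP-1 factor that binds DNA together with Irf4, was at 2.48 and 8.63 RPKM, a linear ratio of 3.47 but a log2 ratio of 1.47 after 1 was added. Batf3, which sustains Irf8 in cross-presenting dendritic cells, was at 5.77 RPKM with clodronate and listed at 0 with vehicle. It was the single gene kept in the list that was past 3-fold after 1 was added. That is 8.33% of the genes kept in the list, where 2.86% of all genes kept were. Batf3 passed the filter only through the clodronate library, so this count is a description only. Prdm1, a target of Irf4 in plasma cells, was at 11.1 and 6.91 RPKM.

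Markers of other cells that carry IRFs were low for dendritic cells and higher for monocytes. Plasmacytoid dendritic cells hold much Irf7 without stimulation, and of their 6 markers Klk1 was listed at 0 in both libraries and Siglech was at 0.033 RPKM in the vehicle library and listed at 0 in the clodronate library. The sum of that list went from 27.2 to 40.6 RPKM, most of it Tcf4, a broadly expressed factor, at 26.8 and 37.9 RPKM. Cox6a2 in that list was listed at 0 with vehicle and was at 2.34 RPKM with clodronate, past 3-fold. It passed the filter only through the clodronate library, and it and Tcf4 were the 2 markers kept. Ccr9 was at 0.458 RPKM with vehicle and 0.129 RPKM with clodronate, and Ly6d at 0 and 0.182 RPKM. The 8 markers of conventional dendritic cells, where Irf4 and Irf8 are abundant, summed to 7.70 RPKM in the vehicle library and 13.5 RPKM in the clodronate library. Cd209a in that list went from 1.25 to 8.68 RPKM, while Ccr7 went from 3.36 to 2.31 RPKM and Zbtb46 was at 1.05 and 1.09 RPKM. The remaining markers were under 1 RPKM in both libraries. Of these, Flt3 and Xcr1 were higher with clodronate, and Clec9a, Dpp4 and Itgae were lower. The 6 monocyte markers summed to 145 and 168 RPKM, with Plac8 at 45.4 and 91.8 RPKM, Ly6c2 at 13.0 and 23.0 RPKM, Ccr2 at 48.5 and 37.8 RPKM and Chil3 at 36.4 and 14.8 RPKM. Of the 5 monocyte markers kept, 2 were higher and 3 lower in the clodronate library.

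Of the remaining marker lists, that of endothelial cells had a higher sum in the clodronate library and the others did not. The sums of B and plasma cells and of T and NK cells were mostly a single gene each, and their other markers went both ways. B and plasma cell markers summed to 88.7 RPKM in the vehicle library and 64.5 RPKM in the clodronate library. Of these sums Xbp1, a broadly expressed gene, made up 85.5 and 61.1 RPKM. Mzb1 was at 0 and 1.52 RPKM, Cd79b at 1.90 and 0.536 RPKM, and Pax5 was listed at 0 in both. T and NK cell markers summed to 11.4 and 9.76 RPKM, of which Cd4 made up 10.3 and 7.72 RPKM, with Cd3e, Cd3g, Ncr1 and Gzma at 0 in both. Nkg7 (0 and 1.02 RPKM) and Klrb1c (0 and 0.918 RPKM) were higher with clodronate. Cd3d (0.837 and 0.0789 RPKM) and Lck (0.310 and 0 RPKM) were lower. Neutrophil markers summed to 46.1 and 46.0 RPKM (S100a9 and Retnlg at 0 in both). Fibroblast markers summed to 156 and 75.4 RPKM, and endothelial markers to 3.34 and 7.84 RPKM, with Tek and Emcn at 0 in both. Pecam1 (1.24 and 3.33 RPKM), Cdh5 (0.480 and 3.24 RPKM) and Kdr (0.650 and 0.831 RPKM) were higher with clodronate. Vwf (0.967 and 0.443 RPKM) was lower. The part of these cells in the levels of the IRFs was not tested.

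**Figure D4:**
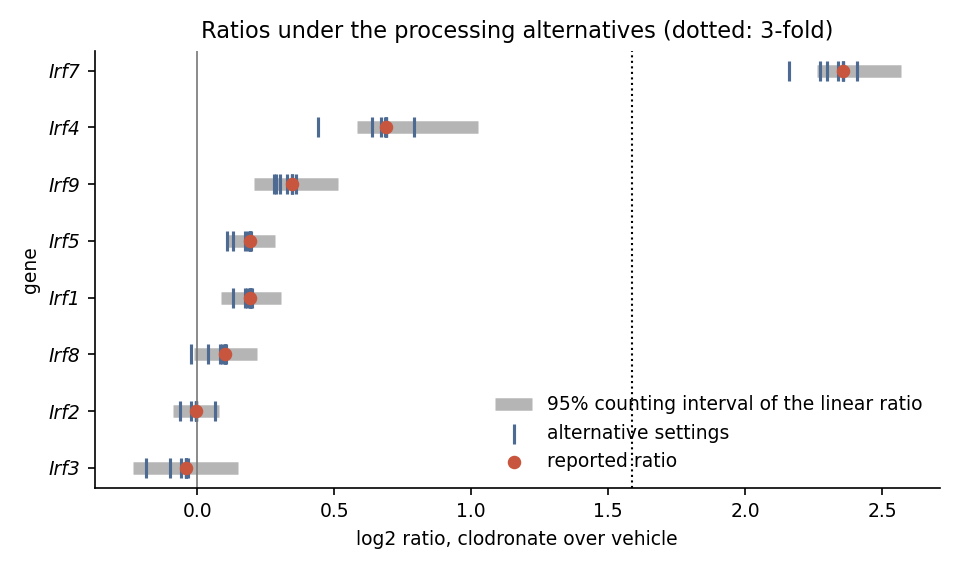
Log2 ratio of each IRF as reported and under the alternative settings, with a grey bar for the counting interval of the linear ratio on a log2 scale. Irf7 lies between 2.16 and 2.41 and Irf4 between 0.44 and 0.79 under all of the settings that gave a value, while Irf2 and Irf8 lie on both sides of 0.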

How the data were processed

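The 2 libraries were labelled as polyA RNA of aerobic cells sorted from LLC tumors, and the labels name TRIzol or a column kit for extraction. The authors deposited RPKM values for 23170 loci in each library, with no counts. The submitters' processing notes name CASAVA 1.8.2, TopHat2 2.0.9, Bowtie 0.12.9, Cufflinks 2.2.1, Cuffdiff and build mm9. The paper of the series does not describe these libraries, and whether reads were counted by strand is not given in the sources used here, so an antisense transcript could add to a gene.

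Rows of 1 symbol were summed, which gave 22886 genes. For 26 loci with a number in place of the symbol, the accession served as the name. The filter was a mean over both libraries of at least 1 RPKM. Values were compared as log2(RPKM + 1), and a difference of 3-fold was counted as a call. The RPKM of low loci, multiplied by length, lay within 0.1 of a whole multiple of 1 step for 76.6% of 513 loci in the vehicle library and 76.6% of 964 in the clodronate library, and the rest did not. The steps imply about 13700000 and 11300000 reads, and the exact intervals rest on the read numbers estimated in this way from the shortest transcript of a gene. Scripts were tested on simulated data. Promoter windows came from RefSeq (GRCm38.p6), and no coordinate of that build was joined to mm9. Python 3.11.15, numpy 2.4.6, pandas 2.3.3, scipy 1.17.1 and matplotlib 3.10.9 were used.

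The members and lists were chosen with earlier results of these data known. The genes named are the members, genes of the pathway and marker lists, and the 3 genes nearest in level to each member past 3-fold. Neighbouring loci were added after their values were seen. Some genes that the rule names are not reported here. Of the list genes, 1 was not found and 1 was found under an older symbol.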

Additional observations from a re-analysis of the deposited data

How the results depend on the processing

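Each condition had 1 library, so no library could be left out and no spread between animals was measured. No paired analysis was possible because the vehicle and the clodronate group hold 1 library each. In all 9 alternatives the counts of members past the fold stayed at 1 higher and 0 lower. A pseudocount of 0.1 gave 532 genes higher and 480 lower by 3-fold, and medians of -1.39 for ligands and 1.46 for ISGF3 targets. A pseudocount of 5 gave 66 higher and 43 lower, log2 ratios of 0.44 for Irf4 and 2.16 for Irf7, and medians of -0.051 for ligands, 0.92 for ISGF3 targets and 0.32 for targets of Irf1 and interferon-γ. Without the filter the ligand median was 0 over 14 genes. A minimum of 5 RPKM gave 127 higher and 101 lower, and left too few ligands for a value. Correction for GC content and length, known for 98.7% of genes, turned Irf8 to -0.022 and gave medians of 0.017 for receptors and JAK-STAT and 0.12 for inhibitors. A bound of 2-fold gave 763 higher and 744 lower. The sign of Irf2 varied, from -0.064 to 0.065.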
